A study of Daphnia sinensis with 8 samples.

Results

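The genes described here are 3 protease unigenes of *Daphnia sinensis*, a water flea that alternates between parthenogenesis and sexual reproduction. They are Cluster-5789.11655 (trypsin alpha-like), Cluster-5789.2039 (serine protease ami-like) and Cluster-5789.7668 (trypsin-like isoform X1), out of 11114 unigenes listed in every library. A unigene is a gene-level sequence put together from the reads themselves, and the names are the closest protein matches in other species that the study gave. All 3 passed the filter on low counts, as did 10822 of the 11114. They were taken from the study's list of male-biased genes. Candidates for that list were the most up-regulated genes of males against each female stage in these libraries. The study then kept those that quantitative PCR measured as significantly higher in males than in juvenile, parthenogenetic and sexual females. That males exceed females in these unigenes is therefore how they were found, and the values of males are given as a description, without a test.

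RNA came from whole animals in 4 life-history stages, each with 2 pooled libraries. Juvenile females (JF) were under 12 h old and pooled at about 500 individuals. Parthenogenetic females (PF, carrying their first eggs) and sexual females (SF, carrying resting eggs) were adults of 2 to 3 weeks, pooled at about 50 individuals each. Males (M) had the same labelled age, 2 to 3 weeks, and were pooled at about 60 individuals. The methods define males as within 12 h of birth, but state that they were collected as juveniles and then cultured for 2 weeks. JF were the offspring of singly kept mothers, PF and SF came from beakers shared by several mothers, and males were raised apart after collection, so age and culture cannot be told apart from stage in comparisons with JF, and culture cannot be in comparisons with males. No source says whether the 2 pools of a stage came from separate cultures, so p-values measure only the spread between these libraries. In whole animals, fewer cells of a type and less RNA per cell cannot be told apart. Total counts per library ranged from 17172891 to 27160267.

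Trypsins are secreted serine proteases that cut proteins after lysine or arginine. They are made as inactive precursors and activated by cleavage. In *Daphnia magna*, trypsins and chymotrypsins are known as the main protein-digesting enzymes of the gut, while other members of the same family in arthropods act in moulting, immunity and reproduction. Which of these roles the present unigenes have is not known from their names.

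The sequences at hand for these genes are the primer pairs that the study used to measure them by quantitative PCR, shown because they mark the stretch of each transcript that was amplified (5′ to 3′, from the study's primer list, all in lower case because no base is singled out). The pairs had lengths of 18 to 21 bases and a GC content of 38.1% to 50%, and the reverse primer of each pair reads the opposite strand.
Trypsin alpha-like, forward: gtaatcgccgcattgaat
Trypsin alpha-like, reverse: tgatgtgcctggtattgt
Serine protease ami-like, forward: agacactgactccaatctc
Serine protease ami-like, reverse: cctgacactgcttgacta
Trypsin-like isoform X1, forward: ccaatacggaacttcattcat
Trypsin-like isoform X1, reverse: ggtaatgccaacttgaaca
The 6 primers differ from each other, and their places in the genome are not analysed here. Trypsins form a gene family with related sequences, so the authors' counting could have split reads between members, and single values are uncertain to that degree.

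Levels are given as counts per 1000000 counts (CPM) after TMM scaling, which corrects for differences in composition between libraries. They can be compared between libraries for the same unigene but not between unigenes, since unigene lengths are not used here.

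Trypsin alpha-like (Cluster-5789.11655) was highest in males, followed by SF, JF and PF. The 2 male libraries held 742 and 751 CPM, the SF libraries 541 and 239, the JF libraries 85.2 and 81.1, and the PF libraries 29.8 and 31.4. No stage overlapped with its neighbour in this order, but the SF libraries stood far apart from each other. The mean was 746 ± 6.69 CPM for M, 390.0 ± 214 for SF, 83.2 ± 2.93 for JF and 30.6 ± 1.12 for PF (SD, n = 2 libraries each). Of the sum of the 4 stage means, males held 59.7%, SF 31.2%, JF 6.65% and PF 2.45%.

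Serine protease ami-like (Cluster-5789.2039) had the same order of stages, with a wider step from JF to PF. Its levels were 522 and 517 CPM in M, 404 and 116 in SF and 64.6 and 63.3 in JF, falling to 5.53 and 4.44 in PF. The PF libraries rested on estimated counts of 136 and 82, the lowest of the 3 unigenes, and the male libraries on 12060 and 9795. The mean was 519 ± 3.51 CPM for M, 260.2 ± 203 for SF, 64.0 ± 0.929 for JF and 4.98 ± 0.771 for PF (SD, n = 2 libraries each). PF held 0.587% of the sum of stage means, against 30.7% for SF and 61.2% for M.

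Trypsin-like isoform X1 (Cluster-5789.7668) followed another order, with JF second and both SF and PF far below. The male libraries held 203 and 192 CPM, the JF libraries 77.7 and 65.5, the PF libraries 24.2 and 10.9, and the SF libraries 16.6 and 13.7. Both SF libraries lay between the PF libraries, so these stages could not be ranked. The mean was 198 ± 8.01 CPM for M, 71.6 ± 8.65 for JF, 17.6 ± 9.37 for PF and 15.2 ± 2.10 for SF (SD, n = 2 libraries each). SF held 5.02% of the sum of stage means and JF 23.7%, the reverse of their order in the other 2 unigenes.

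**Figure D1:**
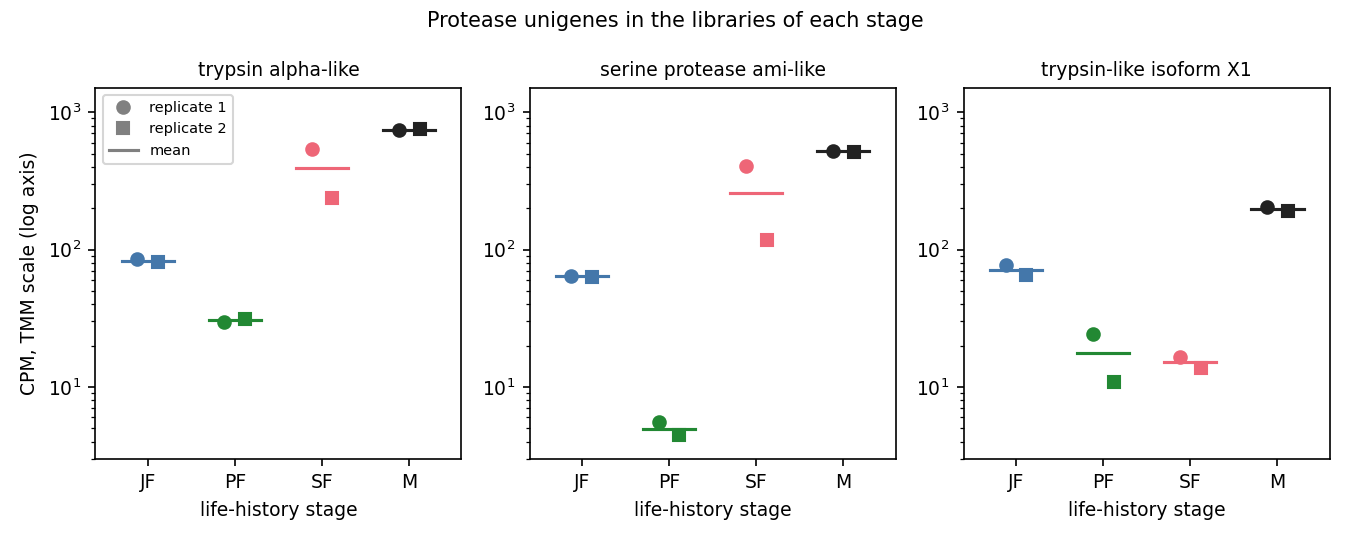
CPM of the 3 protease unigenes (log axis) in each library of JF, PF, SF and M, with circles for replicate 1, squares for replicate 2 and a line for the mean of both. Trypsin alpha-like and serine protease ami-like were higher in SF (239 to 541 and 116 to 404 CPM) than in JF and PF, whereas the SF libraries of trypsin-like isoform X1 (13.7 and 16.6 CPM) lay between those of PF.

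Against males, each unigene had 1 or more female stages in which it was far lower. The log2 fold change of trypsin alpha-like, males over females, was 3.17 against JF (standard error 0.37), 4.61 against PF (0.40) and 0.94 against SF (0.35). For serine protease ami-like the log2 fold changes were 3.02 (0.57), 6.70 (0.68) and 1.00 (0.53) in the same order, the second being a 104-fold difference. Trypsin-like isoform X1 had log2 fold changes of 1.47 (0.35), 3.49 (0.38) and 3.71 (0.38) against JF, PF and SF. The female stage closest to males was thus SF for trypsin alpha-like and serine protease ami-like, and JF for trypsin-like isoform X1. Both male libraries lay above all 6 female libraries for 3 of 3 unigenes, as they did for 14.5% of all tested unigenes, but the choice of these unigenes used that difference.

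The log2 fold changes in M vs SF depended on the SF library. Without SF replicate 1 it was 1.64 for trypsin alpha-like and 2.15 for serine protease ami-like, and without SF replicate 2 it was 0.51 and 0.41. For trypsin-like isoform X1 it stayed between 3.61 and 3.85 with any library left out. In M vs PF this unigene depended on the PF library instead, with 4.25 without PF replicate 1 and 3.03 without PF replicate 2.

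The comparisons between female stages set only female libraries against each other. They were tested for each unigene with edgeR's quasi-likelihood test in a single fit over all tested unigenes. That fit held all 8 libraries, so the male libraries entered the scaling, the filter and the spread, shared by all stages, behind each p-value. The female libraries themselves had entered the comparisons from which the unigenes were picked, so the levels in females were not free of that choice. Neither were the p-values and the counts of calls below, whereas the shares over all tested unigenes come from unigenes not picked in this way. Those counts therefore describe the picked unigenes only. The call required a fold change of more than 1 on the log2 scale, in either direction, together with a p under 0.05 after Benjamini-Hochberg adjustment. Libraries that did not overlap between female stages were common: over all tested unigenes, both SF libraries were above both PF libraries in 32.4%, above both JF libraries in 42.3% and below them in 39.1%, and both PF libraries were below both JF libraries in 42.6%.

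In SF vs PF, which compares adult females that carry resting eggs with those that carry their first parthenogenetic eggs, 2 of the 3 unigenes were called higher in SF, against 9.98% of all tested unigenes. Trypsin alpha-like was 12.7-fold higher in SF (log2 fold change 3.67, standard error 0.38, edgeR adjusted p = 0.00194). Serine protease ami-like was 52.0-fold higher (log2 fold change 5.70, standard error 0.65, edgeR adjusted p = 0.00307). For trypsin-like isoform X1 the log2 fold change was -0.22 (standard error 0.35, edgeR adjusted p = 0.68), and a difference in either direction was within the spread of the PF libraries. It was 0.52 without PF replicate 1 and -0.68 without PF replicate 2. Without SF replicate 1, the log2 fold changes of trypsin alpha-like and serine protease ami-like in SF vs PF were 3.02 and 4.59, and the latter was 6.34 without SF replicate 2. With any library left out, the log2 fold changes of these unigenes stayed at or above 3.02 and 4.59. A fit of the SF and PF libraries alone kept both calls, closer to the threshold. It gave 3.68 (standard error 0.48, edgeR adjusted p = 0.0347) for trypsin alpha-like and 5.71 (0.82, edgeR adjusted p = 0.0467) for serine protease ami-like. That fit called 513 unigenes higher in SF, against 1080 in the fit of all 8 libraries.

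In SF vs JF the unigenes were called in opposite directions. Higher in SF were 2 of the 3, against 19% of all tested unigenes, and lower in SF was 1 of the 3, against 18.6%. Trypsin alpha-like was 4.69-fold higher in SF than in JF (log2 fold change 2.23, standard error 0.36, edgeR adjusted p = 0.00247), and 1.64 on the log2 scale without SF replicate 1. Serine protease ami-like was 4.07-fold higher (log2 fold change 2.02, standard error 0.54, edgeR adjusted p = 0.0205). Its call was lost without JF replicate 1, without JF replicate 2 (edgeR adjusted p = 0.0894 and 0.0953) and without SF replicate 1, where the log2 fold change of 0.99 fell under the threshold (edgeR adjusted p = 0.00378), and the log2 fold change was 2.73 without SF replicate 2. The call was also lost with edgeR on the SF and JF libraries alone (log2 fold change 2.03, edgeR adjusted p = 0.0592). Over its 16 alternatives the adjusted p ranged from 0.000361 to 0.0953. Trypsin-like isoform X1 was 4.72-fold lower in SF than in JF (log2 fold change -2.24, standard error 0.36, edgeR adjusted p = 0.00262), and this call held with any library left out (edgeR adjusted p at most 0.0259).

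In PF vs JF, 3 of the 3 unigenes were called lower in PF, against 21.6% of all tested unigenes. Serine protease ami-like was 12.8-fold lower in PF (log2 fold change -3.68, standard error 0.60, edgeR adjusted p = 0.00284). Trypsin-like isoform X1 was 4.06-fold lower (log2 fold change -2.02, standard error 0.36, edgeR adjusted p = 0.00359). Its log2 fold change was -2.67 without PF replicate 1 and -1.57 without PF replicate 2. Trypsin alpha-like had the smallest difference, 2.72-fold lower in PF (log2 fold change -1.44, standard error 0.35, edgeR adjusted p = 0.0127), although its JF and PF libraries were each close to one another. Its call was lost without JF replicate 1, PF replicate 1 or PF replicate 2 (edgeR adjusted p = 0.0502, 0.0594 and 0.0545), while over its 16 alternatives the adjusted p ranged from 0.000153 to 0.0594. In this fit the spread of a unigene is shared by all stages, so the wide SF libraries and the close male libraries both enter the error of PF vs JF. A fit of the JF and PF libraries alone gave a log2 fold change of -1.34 with a standard error of 0.12 (edgeR adjusted p = 0.00149).

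**Figure D2:**
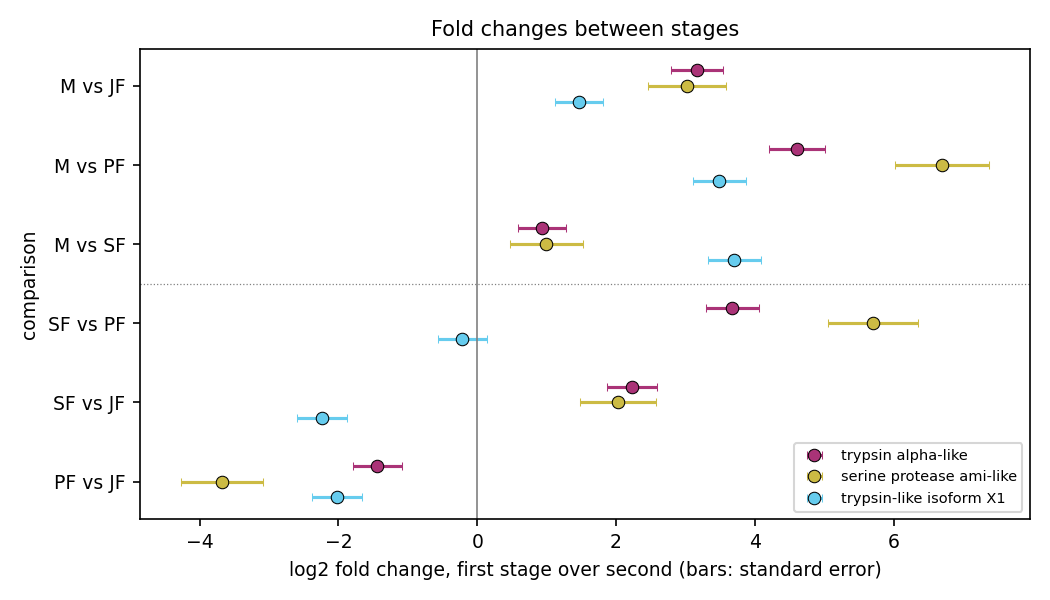
Log2 fold changes of the 3 unigenes in the 6 comparisons between stages (first stage over second), with bars for the standard error of the edgeR fit. The upper 3 comparisons, with males, entered the choice of the unigenes and are descriptive. In SF vs PF trypsin-like isoform X1 lies at -0.22 while the others lie at 3.67 and 5.70, and in SF vs JF it lies on the other side of 0.

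The replicate libraries of a stage did not differ to the same degree for these unigenes. In males the ratio of replicate 1 to replicate 2 was 0.987 for trypsin alpha-like, 1.01 for serine protease ami-like and 1.06 for trypsin-like isoform X1. The last of these was small but exceeded the difference of 92.3% of the unigenes of similar level (95% interval 1.01 to 1.11), whose median absolute log2 ratio was 0.03. In JF the ratios were 1.05, 1.02 and 1.19. For trypsin alpha-like and serine protease ami-like the 95% interval from counting error (exact binomial) included equal levels in both stages.

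In SF, replicate 1 was 2.27 times as high as replicate 2 for trypsin alpha-like (95% interval 2.20 to 2.35) and 3.47 times for serine protease ami-like (3.32 to 3.63). The intervals cover counting error only, and reads copied by PCR are not independent molecules. Such differences were at the upper end for SF: of the tested unigenes within 2-fold of the same mean level, 91.5% had a smaller replicate difference than trypsin alpha-like and 97.1% a smaller one than serine protease ami-like. Over all tested unigenes, 6.02% were more than 2-fold higher in SF replicate 1 than in replicate 2, and 49% were higher in replicate 1 by any amount, a balance that the scaling itself sets near equality. Trypsin-like isoform X1 had a ratio of 1.22 (1.04 to 1.43) in the same libraries, near the middle of the unigenes of similar level (56.7% had a smaller difference). The spread between the SF libraries was thus large for 2 of the 3 unigenes.

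In PF the pattern was the other way round. Trypsin-like isoform X1 was 2.21 times as high in replicate 1 as in replicate 2 (95% interval 1.88 to 2.61), a larger difference than in 92.2% of the unigenes of similar level. Trypsin alpha-like had a ratio of 0.949 (0.850 to 1.06), and serine protease ami-like one of 1.25 (0.940 to 1.66). Each unigene thus had at most 1 stage in which its libraries differed more than 2-fold, and this was SF for the first 2 and PF for trypsin-like isoform X1.

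**Figure D3:**
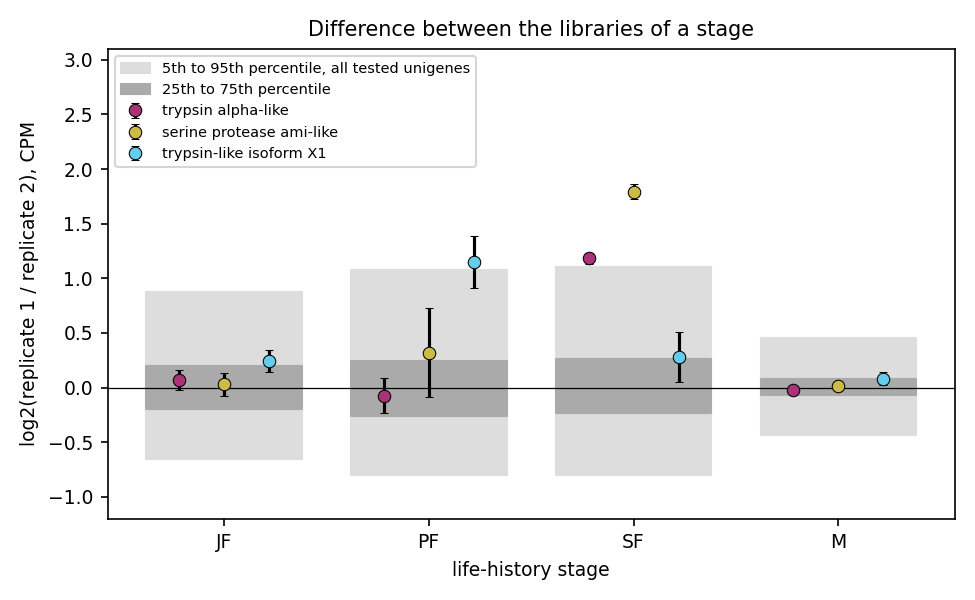
Log2 ratio of replicate 1 to replicate 2 (CPM) for each unigene and stage, with bars for the 95% interval from counting error, over grey bands that hold the middle 50% (dark) and 90% (light) of all tested unigenes. Trypsin alpha-like and serine protease ami-like lie above the outer band in SF (1.18 and 1.79), and trypsin-like isoform X1 in PF (1.15).

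Ratios of counts between unigenes of the same library need no scaling between libraries. As unigene lengths enter them, only their change from library to library is read here. The ratio of trypsin alpha-like to serine protease ami-like was 1.32 and 1.28 for JF, 1.42 and 1.45 for M, 1.34 and 2.05 for SF, and 5.39 and 7.07 for PF. These unigenes were therefore found in similar proportion in JF, M and SF replicate 1, and PF stood apart through its low serine protease ami-like counts. The ratio of trypsin alpha-like to trypsin-like isoform X1 overlapped between JF (1.10 and 1.24) and PF (1.23 and 2.87), and was higher in M (3.65 and 3.91) and highest in SF (32.5 and 17.4). That of serine protease ami-like to trypsin-like isoform X1 was lowest in PF (0.229 and 0.406), followed by JF (0.832 and 0.967), M (2.57 and 2.69) and SF (24.3 and 8.52). Both SF libraries were above all other libraries in these 2 ratios. With 2 libraries per stage, no test of a ratio between stages was made.

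**Figure D4:**
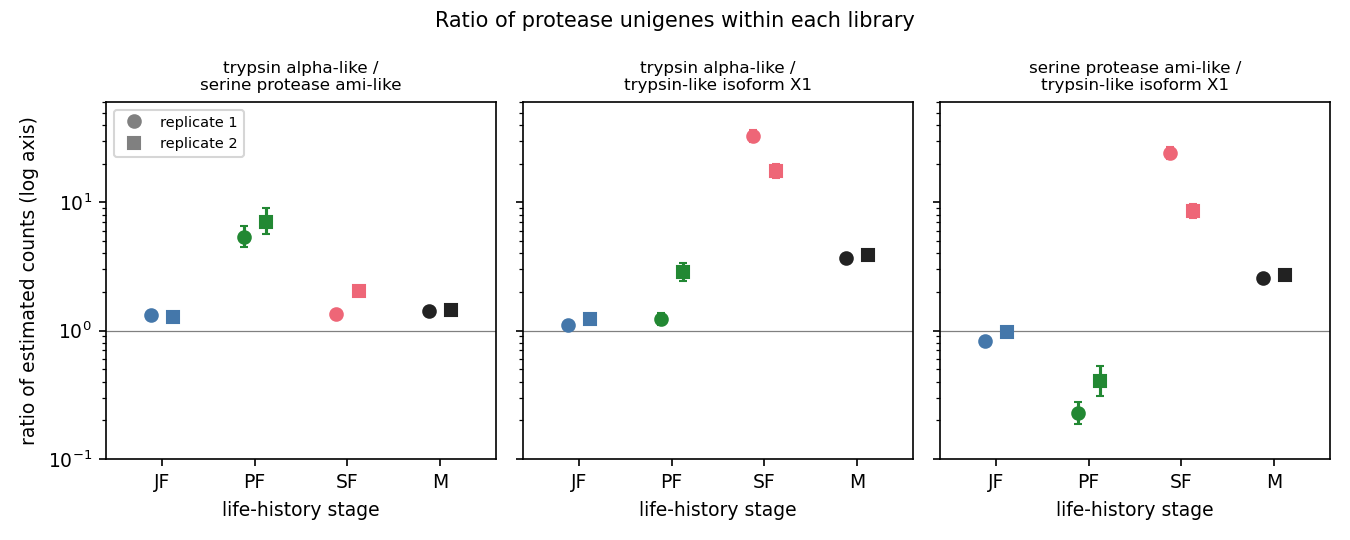
Ratio of estimated counts between the unigenes of each pair within each library (log axis), with bars for the 95% interval from counting error. Both ratios to trypsin-like isoform X1 peak in SF (17.4 and 32.5 for trypsin alpha-like), and the ratio of trypsin alpha-like to serine protease ami-like peaks in PF (5.39 and 7.07).

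To place the 3 unigenes among the others of the study's male-biased list, profiles were compared over the 8 libraries by the root mean square difference of log2 CPM, each unigene being centred on its own mean. Of the 36 listed unigenes, 28 are in the files. Serine protease ami-like was most like chitin synthase 2 (Cluster-5789.11830), named as an enzyme that makes chitin, with a difference of 0.26. None of the other 10821 tested unigenes was closer (0 unigenes), and the median difference to all of them was 2.64. Chitin synthase 2 had 388 and 140 CPM in the SF libraries, 6.79 and 7.30 for PF, 66.8 and 58.4 for JF, and 519.8 and 520.4 for M, close to serine protease ami-like in each library relative to its own mean. The difference between serine protease ami-like and trypsin alpha-like was larger, 0.93, and 77 other tested unigenes were closer to serine protease ami-like.

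Trypsin alpha-like was closest to the uncharacterized unigenes Cluster-5789.6490 (0.56) and Cluster-5789.2216 (0.63), with 107 other tested unigenes closer than the first of them. Cluster-5789.6490 also came second for serine protease ami-like (0.54). It had 1712 and 551 CPM in the SF libraries, so the same SF library was the higher one.

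Trypsin-like isoform X1 was closest to the uncharacterized unigene Cluster-5789.6049 (0.40, with 6 of the tested unigenes closer) and to laminin subunit gamma-3 (Cluster-5789.8159), a basement membrane component (0.54, with 26 closer). Laminin subunit gamma-3 also had JF second after M, with 743 and 745 CPM for M, 273 and 266 for JF, 127 and 132 for PF, and 86.3 and 75.8 for SF. The difference of trypsin-like isoform X1 was 1.70 to trypsin alpha-like and 2.10 to serine protease ami-like, while its median difference to all tested unigenes was 1.69. Seen from the other unigenes, trypsin-like isoform X1 was somewhat closer than the median, which was 1.94 for trypsin alpha-like (2454 unigenes closer) and 2.64 for serine protease ami-like (1209 closer).

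**Figure D5:**
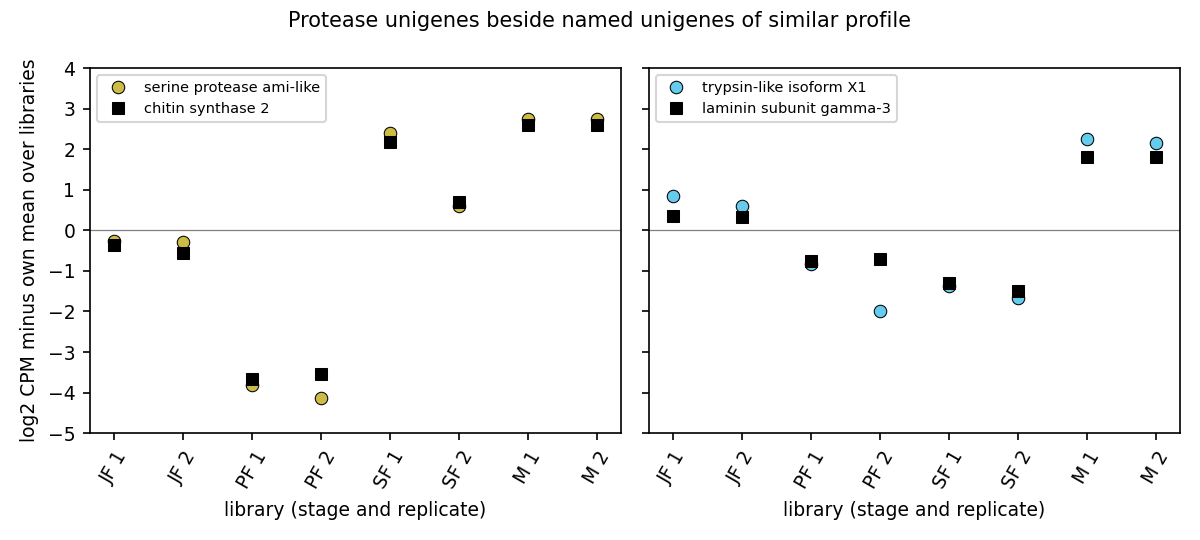
Log2 CPM of each library minus the unigene's own mean over the 8 libraries, for serine protease ami-like beside chitin synthase 2 and for trypsin-like isoform X1 beside laminin subunit gamma-3. The root mean square difference was 0.26 for the first pair and 0.54 for the second, where PF replicate 2 is the library that differs most.

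In the female comparisons, the chitin genes of the same list had calls like those of trypsin alpha-like and serine protease ami-like. Chitin synthase 2, chitinase 5 and chitinase 8, which make and break down chitin, were called higher in SF than in PF in 3 of 3 cases (log2 fold changes 4.45 to 5.55), higher in SF than in JF in 2 of 3 (0.74 to 3.20 over the 3), and lower in PF than in JF in 3 of 3. Over all tested unigenes, 9.98%, 19% and 21.6% were called in these directions. Of the 3 trypsin-7-like unigenes, 0 were called in SF vs PF and 0 in SF vs JF, with log2 fold changes from -0.24 to 1.85 and from -0.87 to 0.59, and 1 was called lower in PF than in JF. In SF vs PF, 1 of them had an unadjusted edgeR p under 0.05 and 1 was called by DESeq2, and in SF vs JF both counts were 0. In all 6 of these unigenes SF replicate 1 was at least 2.78 times as high as replicate 2. Over the 25 other listed unigenes in the files, 10 were more than 2-fold higher in SF replicate 1, against 6.02% of all tested unigenes. By any amount 20 were higher, against 49% of all tested unigenes. The ratio of the 25 listed unigenes ranged from 0.523 to 9.16, so trypsin alpha-like (2.27) and serine protease ami-like (3.47) fall within that range. The candidates for the list were picked from these libraries before quantitative PCR narrowed them, so the counts describe its members and test nothing.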

How the data were processed

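The authors sequenced poly-A RNA as paired-end reads (Illumina HiSeq), discarded low-quality reads and built unigenes from the remainder with Trinity. RNA integrity was reported as a range, with no value per library, so it cannot be set beside the replicate differences. They deposited an estimated count per unigene and library, without scaling. Aligner and counter: not given in the sources used here. No unigene had a count of 0 in any library (0 in each). The shares of all tested unigenes therefore cover only unigenes counted in every library, although the study also reported unigenes specific to a stage. In the reference table of *D. sinensis* genes 0 IDs were found, so names come from the study's list. Estimated counts were rounded to whole numbers. The quasi-likelihood test of edgeR 4.0.16 (R 4.3.3, robust estimation, TMM scaling, edgeR's filter by stage) was fitted by stage alone over the 8 libraries, which left 4 residual degrees of freedom, and p-values were adjusted over all 10822 unigenes kept. The standard error is the log2 fold change divided by the square root of F. Replicate ratios have exact binomial intervals at 95%. Log2 CPM for profiles had a prior count of 0.5. The fit was also run on simulated counts in which a unigene had the same spread in every stage. That run therefore cannot tell how the fit behaves where stages differ in spread.

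The 3 unigenes, the comparison lists and the alternatives were chosen with earlier results of these data known. The unigenes named beside the 3 members were the other named entries of the study's list and, for each member, the 2 of that list with the most similar profile. Alternatives were DESeq2 size factors, library size only, no filter, at least 10 counts in every library, DESeq2 1.42.0, edgeR on the 4 libraries compared, Storey's q-value, a replicate block and each library left out. The qPCR values were not used.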

Additional observations from a re-analysis of the deposited data

How the results depend on the processing

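Between female stages, the 9 log2 fold changes of the 3 unigenes kept their direction and their call in 71 of 72 alternatives that used all libraries of the comparison, and in 65 of 72 with a library left out. The exception among the first was serine protease ami-like in SF vs JF with edgeR on the 4 libraries (2.03, adjusted p = 0.0592, over all alternatives 0.000361 to 0.0953). With libraries left out, the log2 fold change ranged from 0.99 to 2.73 for this comparison, from -1.48 to -1.36 for trypsin alpha-like in PF vs JF and from -0.68 to 0.52 for trypsin-like isoform X1 in SF vs PF, which was positive (0.52) without PF replicate 1. The number of unigenes called in SF vs PF fell from 1080 higher and 524 lower to 513 and 196 with edgeR on the 4 libraries. Why these values changed was not tested.

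Against males, 52 of 63 values with all libraries moved by less than the replicate spread of the wider stage and 11 by more. None of the 11 was in M vs SF or for trypsin-like isoform X1. This rule counts fewer values as moved where replicates lie further apart, so it does not rank the comparisons by stability. In M vs SF, DESeq2 size factors took trypsin alpha-like from 0.94 to 1.06 and serine protease ami-like from 1.00 to 1.12. DESeq2 size factors raised the median of all log2 fold changes by 0.10 against JF and 0.13 against SF. Trypsin alpha-like in M vs JF was 3.27 with DESeq2 size factors and with DESeq2, 3.11 with library size only and 3.30 with edgeR on the 4 libraries. In M vs PF it was 4.68 with both of the former and 4.52 with library size only. Serine protease ami-like in M vs JF was 3.12 with both, 2.96 with library size only and 3.16 on the 4 libraries. With libraries left out these ranged from 3.13 to 3.28, from 4.60 to 4.66 and from 3.01 to 3.14, and serine protease ami-like in M vs PF from 6.55 to 6.94. No value against males changed sign in any alternative (0 values).

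Deviations of same-numbered libraries correlated at -0.03 to 0.11 across unigenes, so little pairing by replicate number was seen. With a single replicate difference per stage, this cannot tell whether same-numbered pools shared a culture or preparation. With the replicate block, trypsin alpha-like had a log2 fold change of 3.61 in SF vs PF and serine protease ami-like one of 5.59, and the block changed none of the 9 calls and left 1012 higher and 499 lower unigenes in SF vs PF. Depth limits serine protease ami-like in PF most, with 82 and 136 counts. Trypsin-like isoform X1 also had low counts, 595 and 202 in PF and 359 and 287 in SF.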
